A study of Mus musculus with 6 samples.

Results

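The genes described here are the ligands, receptors and TRAF adaptors of the tumour necrosis factor (TNF) superfamily that were probed on a mouse array. They were chosen by name: every gene whose single annotated symbol begins with Tnfsf, Tnfrsf or Traf, together with Fas, Lta, Ltb and Ltbr. That gave 36 of the 10698 genes with 1 symbol, measured by 57 probes. They comprise 11 ligands, 19 receptors and 6 genes with TRAF names. Superfamily genes with other symbols, such as Tnf and Cd40, are given further on as a list of their own.

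RNA of treated cells was compared with RNA of untreated cells. The treated group was RAW 264.7 cells, a mouse macrophage line, kept for 1 h with lipopolysaccharide (LPS, 100 ng/ml) and LPS-binding protein (LBP, 100 pM). The untreated group was the same line cultured for 1 h without them. LPS is a glycolipid of the Gram-negative bacterial outer membrane, and LBP is a serum protein that hands it to its receptor complex on macrophages. Some of the labels spell the line RAW 264.4. The study used 6 dual-channel arrays, each carrying treated and untreated RNA in different dyes. The treated RNA was labelled with Cy5 on 3 of them, called the Cy5-treated arrays here, and with Cy3 on the other 3, the Cy3-treated arrays, and both kinds are numbered as sets 1 to 3. RAW 264.7 is a single transformed line, and nothing in the labels shows that the sets came from separate cultures. The p-values therefore cover only the spread among these arrays, which could be technical.

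Every value below is a log2 ratio of treated over untreated RNA. The deposited ratios do not state their direction. In the labels the Cy5 sample is named as the test, so Cy5 over Cy3 is likely, and all directions and ranks given here rest on that reading. Were the ratios Cy3 over Cy5, every higher gene would read as lower and every rank from the top as the same rank from the bottom. No levels, intensities or backgrounds were available here, so the ratios do not show how abundant a transcript was, and the number of arrays limits the precision. Marker genes of the macrophage line could likewise be read only as ratios, not as present or absent. A ratio of bulk RNA cannot tell a change in each cell from a change in the share of cells that carry the transcript.

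TNF superfamily ligands are mostly trimeric membrane proteins, some of which are also shed, and they cluster receptors on the responding cell. Receptors with a cytoplasmic death domain, such as Fas and TNF receptor 1 (Tnfrsf1a), recruit death domain adaptors, whereas most others bind TRAF proteins directly. TRAFs carry the signal to ubiquitin ligases, MAP kinases and NF-kappaB. In macrophages, LPS acts through Toll-like receptor 4, which uses TRAF6 and also ends in NF-kappaB, and several superfamily genes are known NF-kappaB targets.

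The promoters of 5 members are shown as examples. Traf1, Fas, Tnfrsf12a and Lta had higher ratios past the test, and Ltb had ratios of opposite sign in the dye orientations. Each is the 250 bases before the gene's RefSeq start in GRCm38.p6, on the gene's strand, 5′ to 3′, and capitals mark motif matches on either strand. The coordinates are chr2:34961773-34962022, minus strand for Traf1, chr19:34290409-34290658, plus strand for Fas, chr17:23677450-23677699, minus strand for Tnfrsf12a, chr17:35205352-35205601, minus strand for Lta and chr17:35194257-35194506, plus strand for Ltb.
Traf1: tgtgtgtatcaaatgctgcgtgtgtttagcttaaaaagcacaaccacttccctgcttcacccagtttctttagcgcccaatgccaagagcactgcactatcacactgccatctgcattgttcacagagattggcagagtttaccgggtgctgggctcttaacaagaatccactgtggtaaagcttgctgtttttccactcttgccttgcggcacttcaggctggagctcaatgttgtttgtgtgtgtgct
Fas: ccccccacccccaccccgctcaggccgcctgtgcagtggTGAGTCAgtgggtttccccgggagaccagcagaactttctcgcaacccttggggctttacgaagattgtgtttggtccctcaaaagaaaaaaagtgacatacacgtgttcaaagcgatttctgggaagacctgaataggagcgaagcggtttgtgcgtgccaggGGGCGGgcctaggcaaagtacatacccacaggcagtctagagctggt
Tnfrsf12a: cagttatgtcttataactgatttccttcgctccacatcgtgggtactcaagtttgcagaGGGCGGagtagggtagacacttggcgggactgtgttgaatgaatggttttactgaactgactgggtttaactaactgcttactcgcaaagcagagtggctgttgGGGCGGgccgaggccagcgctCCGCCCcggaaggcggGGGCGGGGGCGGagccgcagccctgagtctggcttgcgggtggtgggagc
Lta: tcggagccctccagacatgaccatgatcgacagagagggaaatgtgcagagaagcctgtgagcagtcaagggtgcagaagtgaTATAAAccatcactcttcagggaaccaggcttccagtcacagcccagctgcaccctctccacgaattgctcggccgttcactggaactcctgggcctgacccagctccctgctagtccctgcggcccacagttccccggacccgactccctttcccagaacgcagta
Ltb: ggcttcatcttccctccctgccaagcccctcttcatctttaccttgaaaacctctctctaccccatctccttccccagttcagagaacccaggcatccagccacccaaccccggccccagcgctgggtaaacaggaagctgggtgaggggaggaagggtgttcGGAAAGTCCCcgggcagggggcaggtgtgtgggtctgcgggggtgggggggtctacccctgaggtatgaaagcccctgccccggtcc

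Of the 36 members, 30 had a promoter in the RefSeq table used here, and Tnfsf9 did not. The motifs searched were the NF-kappaB consensus, the AP-1 motif TGANTCA, the GC box GGGCGG and the TATA motif TATAAA. The Ltb window holds an NF-kappaB consensus on the reverse strand, 87 to 78 bases before the start. The Fas window holds an AP-1 motif, which reads alike on both strands, 211 to 205 bases before the start, and a GC box 47 to 42 bases before it. The Tnfrsf12a window holds 5 GC boxes, of which the pair at 50 and 44 bases before the start are adjacent without overlap. The Lta window holds a TATA motif 167 to 162 bases before the start, and the Traf1 window holds none of the 4 motifs. The called members Tnfrsf1b and Tnfrsf25 also had promoters, which are not shown. Tnfrsf1b has GC boxes on the reverse strand 67 to 62 and 57 to 52 bases before the start. Tnfrsf25, the member called lower, has an NF-kappaB consensus 28 to 19 bases before its start. Among all 32851 promoter windows, 7.25% hold the NF-kappaB consensus, 6.75% the AP-1 motif, 32.7% the GC box and 12.4% the TATA motif. Among the 34 windows of members, 3 hold the NF-kappaB consensus, 5 the AP-1 motif, 16 the GC box and 4 the TATA motif. These matches describe letters in the window and show neither binding nor its absence.

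Treated RNA had more transcript of 6 members and less of 1 at 1 h. The strongest was Traf1, an adaptor that binds TNF receptor 2 complexes, at 6.58-fold, followed by the ligand Tnfsf9 (4-1BB ligand) at 3.87-fold. The death receptor Fas and the receptor Tnfrsf12a (Fn14) were 2.23-fold and 2.22-fold higher, and Lta and Tnfrsf1b 1.23-fold and 1.20-fold higher. Tnfrsf25, another death domain receptor, was the member that was lower. The remaining 22 tested members did not pass the test.

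Of the 36 members, 29 had a probe with a ratio on all 6 arrays and were tested among 8331 genes with limma on the 3 set averages. Genes were called at a Benjamini-Hochberg adjusted p under 0.05 over all 8331 genes. Calls made up 13.2% of all genes tested, 6.96% higher and 6.21% lower. An unadjusted p under 0.05 in the limma fit was found for 10 of 29 members and for 2253 of the 8331 genes. Among the tested members 7 of 29 were called in either direction, 20.7% higher and 3.45% lower. With the direction turned, 3.45% would be higher and 20.7% lower, against 6.21% and 6.96% of all genes. The median member stood at a log2 ratio of 0.02, against -0.01 for all genes tested. The median absolute ratio was 0.088 for members and 0.069 for all genes. The ratio had one sign on all 6 arrays for 9 of 29 members (31.0%), where 19.1% of all genes did. By role, 2 of 8 tested ligands, 3 of 15 receptors and 1 of 6 TRAF-named genes were called higher, and the lower member was a receptor.

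**Figure D1:**
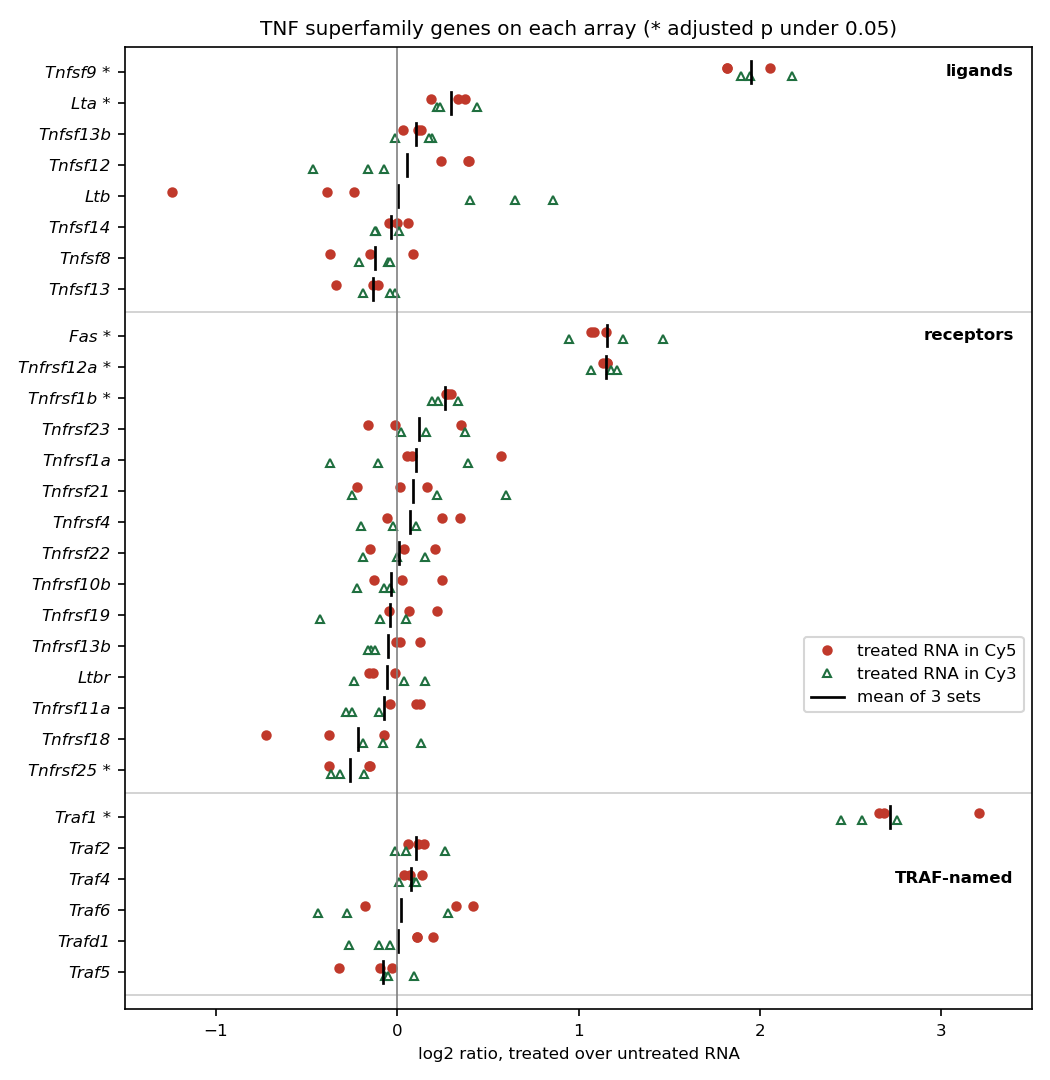
Log2 ratio of treated over untreated RNA (horizontal axis) for the 29 tested members, grouped by role; circles are the 3 Cy5-treated arrays, triangles the 3 Cy3-treated arrays, and the vertical bar is the mean of 3 sets. Traf1, Tnfsf9, Fas and Tnfrsf12a lie between 0.95 and 3.21 on all 6 arrays, most other members straddle 0, and Ltb splits by dye orientation.

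Ligands are the molecules a macrophage shows or sheds to other cells. Tnfsf9, which costimulates T cells through its receptor 4-1BB, had log2 ratios of 1.82, 2.06 and 1.82 on the Cy5-treated arrays and 1.90, 2.18 and 1.94 on the Cy3-treated arrays (sets 1, 2 and 3). All 6 arrays lay between 1.82 and 2.18. The mean was 1.95 ± 0.14 (SD, n = 3 sets; 3.87-fold; limma adjusted p = 1.5e-05), the 25th highest of the 8331 genes (25th lowest with the direction turned).

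Lta encodes lymphotoxin alpha, which binds both TNF receptors as a soluble trimer. Its ratios were 0.19, 0.33 and 0.37 on the Cy5-treated arrays and 0.22, 0.24 and 0.44 on the Cy3-treated arrays. All 6 lay above 0, but the rise was small beside that of Tnfsf9. The mean was 0.30 ± 0.10 (SD, n = 3; 1.23-fold; limma adjusted p = 0.0149). Lta did not pass the test on the Cy3 orientation alone (adjusted p = 0.0727) or with exact zeros kept as ratios (adjusted p = 0.0823).

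Ltb encodes lymphotoxin beta, the membrane partner of Lta in the heterotrimer that binds Ltbr. Its ratios were -0.39, -1.24 and -0.24 on the Cy5-treated arrays and 0.65, 0.86 and 0.40 on the Cy3-treated arrays. The 3 arrays of each orientation lay on opposite sides of 0, so no direction of treatment can be read. The mean was 0.01 ± 0.17 (SD, n = 3; 95% interval -0.16 to 0.18; limma adjusted p = 0.966), and this small SD is that of averages in which both signs cancel.

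The other 5 tested ligands had means between -0.14 and 0.10 and did not pass the test. Tnfsf13 (APRIL), a B cell survival factor, averaged -0.14 ± 0.06 and lay below 0 on all 6 arrays (adjusted p = 0.1). Tnfsf13b (BAFF), its relative, averaged 0.10 ± 0.04 (adjusted p = 0.176), with probe means of 0.19 and 0.02. Tnfsf8 (CD30 ligand) averaged -0.12 ± 0.12 on its complete probe. A second Tnfsf8 probe read -1.15, -0.73 and -1.33 on the Cy5-treated arrays and was listed at 0 on the 3 Cy3-treated arrays, so its sign was seen in 1 orientation only. Tnfsf14 (LIGHT), a ligand of Ltbr, averaged -0.04 ± 0.04 with probe means of 0.01 and -0.09, and Tnfsf12 (TWEAK), the ligand of Tnfrsf12a, averaged 0.05 ± 0.08.

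Among the receptors, the 2 largest changes were in Fas and Tnfrsf12a. Fas, the death receptor for Fas ligand, had ratios of 1.15, 1.08 and 1.07 on the Cy5-treated arrays and 1.46, 0.95 and 1.24 on the Cy3-treated arrays. It was higher in treated RNA on all 6 arrays. The mean was 1.16 ± 0.15 (SD, n = 3; 2.23-fold; limma adjusted p = 0.00014), with probe means of 1.31 and 1.00, each past the test.

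Tnfrsf12a, a small receptor without a death domain that signals through TRAFs, had ratios of 1.16, 1.14 and 1.16 on the Cy5-treated arrays and 1.18, 1.21 and 1.07 on the Cy3-treated arrays. The arrays lay close together in both orientations. The mean was 1.15 ± 0.03 (SD, n = 3; 2.22-fold; limma adjusted p = 2.3e-05), which is close to that of Fas, and the difference between them was not tested.

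The TNF receptors differed in their calls. Tnfrsf1b (TNF receptor 2), which has no death domain, had ratios of 0.28, 0.29 and 0.27 on the Cy5-treated arrays and 0.22, 0.19 and 0.33 on the Cy3-treated arrays. All 6 were above 0, with a mean of 0.26 ± 0.03 (SD, n = 3; 1.20-fold; limma adjusted p = 0.00928). Its call was lost on the Cy3 orientation alone (adjusted p = 0.0773) and without replicate 1 (adjusted p = 0.0754).

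Tnfrsf1a (TNF receptor 1), the death domain receptor for TNF, had ratios of 0.08, 0.05 and 0.57 on the Cy5-treated arrays and -0.11, -0.37 and 0.39 on the Cy3-treated arrays. Set 3 was the highest in both orientations and on both probes. Sets 1 and 2 lay above 0 on the Cy5-treated arrays and below 0 on the Cy3-treated arrays. The mean was 0.10 ± 0.33 (SD, n = 3; 95% interval -0.18 to 0.39; limma adjusted p = 0.626), and the interval holds both a rise and a fall. Without replicate 3 the mean was -0.09. Whether the treatment acted differently on Tnfrsf1a and Tnfrsf1b was not tested.

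Tnfrsf25 (death receptor 3), better known on T cells, had ratios of -0.16, -0.38 and -0.15 on the Cy5-treated arrays and -0.18, -0.32 and -0.37 on the Cy3-treated arrays. All 6 were below 0. The mean was -0.26 ± 0.09 (SD, n = 3; 1.20-fold lower; limma adjusted p = 0.0204). This call was lost in 6 of the alternatives, among them each left-out set, where the adjusted p lay between 0.0581 and 0.0629.

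The other 10 tested receptors had means between -0.22 and 0.12 and did not pass the test. Ltbr, the receptor for the lymphotoxin heterotrimer, had ratios of -0.01, -0.16 and -0.14 on the Cy5-treated arrays and 0.15, -0.24 and 0.04 on the Cy3-treated arrays. Its mean was -0.06 ± 0.13 (95% interval -0.20 to 0.08), with 4 of 6 arrays below 0. Tnfrsf11a (RANK), through which RANK ligand turns macrophage precursors into osteoclasts, had ratios of -0.04, 0.10 and 0.12 on the Cy5-treated arrays and -0.29, -0.25 and -0.10 on the Cy3-treated arrays. Its mean was -0.08 ± 0.09 (95% interval -0.19 to 0.04), from averages of 0.06 on the Cy5-treated and -0.21 on the Cy3-treated arrays. The probe means were -0.02 and -0.13. Both intervals hold 0. Tnfrsf18 (GITR) averaged -0.22 ± 0.21 on its complete probe (adjusted p = 0.141), and another of its probes read 0.46, 0.81 and -0.10 on the Cy5-treated arrays and -0.44 on the 1 Cy3 array with a ratio. Tnfrsf13b (TACI), a receptor for APRIL and BAFF, averaged -0.05 ± 0.04 on its complete probe, while its other probe lay between 0.20 and 0.70 on the 5 arrays where it had a ratio. The probes of Tnfrsf18 and Tnfrsf13b thus differed in sign on some arrays.

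None of the remaining 6 receptors passed the test, and each had an SD larger than the size of its mean. Tnfrsf4 (OX40) averaged 0.07 ± 0.18 and Tnfrsf21 (death receptor 6) 0.09 ± 0.26. Tnfrsf10b, the mouse death receptor for TRAIL, averaged -0.03 ± 0.06. The related mouse receptors Tnfrsf22 and Tnfrsf23, which bind TRAIL without a death domain, averaged 0.01 ± 0.17 and 0.12 ± 0.22. Tnfrsf19 (TROY) averaged -0.04 ± 0.06.

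TRAF-named genes had 1 change. Traf1, which lacks the RING domain of its relatives and joins TRAF2 in receptor complexes, had ratios of 2.65, 3.21 and 2.68 on the Cy5-treated arrays and 2.44, 2.76 and 2.56 on the Cy3-treated arrays. The lowest array stood at 2.44, and set 2 was the highest in both orientations. The mean was 2.72 ± 0.23 (SD, n = 3; 6.58-fold; limma adjusted p = 1.5e-05), the 11th highest of the 8331 genes (11th lowest with the direction turned), with probe means of 2.73 and 2.71.

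The adaptors that deliver the signal did not pass the test. Traf2, the central ubiquitin ligase adaptor of TNF receptors, had ratios of 0.15, 0.12 and 0.06 on the Cy5-treated arrays and 0.05, -0.01 and 0.26 on the Cy3-treated arrays. The mean was 0.10 ± 0.06 (95% interval -0.0017 to 0.21, adjusted p = 0.19), with probe means of 0.19, -0.02 and 0.14. Traf6, the adaptor shared with Toll-like receptors and RANK, had ratios of 0.42, 0.32 and -0.18 on the Cy5-treated arrays and -0.28, -0.44 and 0.28 on the Cy3-treated arrays. Its arrays spread over both sides of 0 in each orientation. The mean was 0.02 ± 0.07 (95% interval -0.09 to 0.13), and as for Ltb this small SD is that of averages in which both signs cancel.

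Traf4 had ratios of 0.03, 0.14 and 0.07 on the Cy5-treated arrays and 0.01, 0.09 and 0.10 on the Cy3-treated arrays, a mean of 0.07 ± 0.05. Traf5, which like Traf2 binds CD40 and the lymphotoxin beta receptor, had ratios of -0.09, -0.03 and -0.32 on the Cy5-treated arrays and 0.09, -0.07 and -0.05 on the Cy3-treated arrays, a mean of -0.08 ± 0.10. Trafd1, a zinc finger protein named for its TRAF-type domain and known to restrain Toll-like receptor signalling, averaged 0.00 ± 0.08. For Traf4, Traf5 and Trafd1 the adjusted p lay between 0.326 and 0.99. Traf3 and Traf7 were not analysed here.

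**Figure D2:**
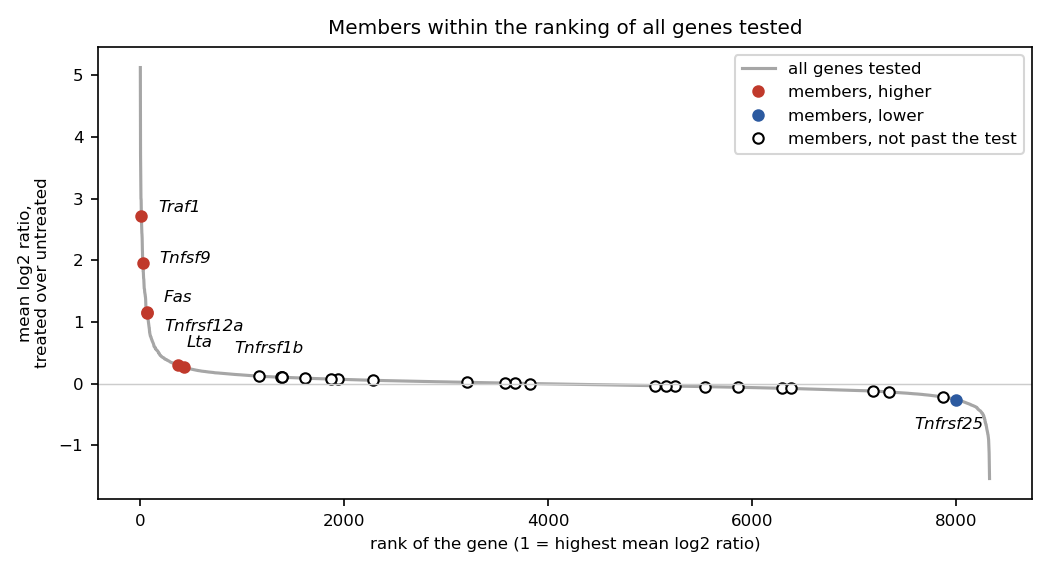
Mean log2 ratio of treated over untreated RNA (vertical axis) against rank among the 8331 genes tested (horizontal axis, 1 is the highest mean); the grey line is all genes and the points are the 29 tested members, filled where called. Traf1 (rank 11), Tnfsf9 (25), Fas (66) and Tnfrsf12a (68) stand in the steep upper end, while Lta (375), Tnfrsf1b (429) and Tnfrsf25 (332nd from the bottom) stand where the curve has flattened.

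Ligands and their known receptors are set side by side here, without a test of the difference. Tnfrsf12a averaged 1.15 where its ligand Tnfsf12 averaged 0.05. Ltbr averaged -0.06 where its ligands Tnfsf14 and Ltb averaged -0.04 and 0.01. Fas averaged 1.16, while Fas ligand had no complete probe. Both sides rose for TNF itself: Tnf averaged 2.44 ± 0.19 and its receptor Tnfrsf1b 0.26, with Lta, which binds the same receptors, at 0.30. Tnfrsf1a, the other TNF receptor, did not pass the test. The receptors of Tnfsf9 and Tnfsf8 were either not analysed here (Tnfrsf9) or had no complete probe (Tnfrsf8).

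Several members are neighbours in the mouse genome and are set side by side here without a test. On chromosome 17, Ltb, Tnf and Lta lie side by side, with no protein-coding gene between them in the RefSeq order, and averaged 0.01, 2.44 and 0.30. Tnf and Lta of these were called. Also on chromosome 17, Tnfsf9 (1.95) and Tnfsf14 (-0.04) flank Cd70, which had no complete probe. In the 4 pairs that follow no gene was called. Tnfsf13 and Tnfsf12 on chromosome 11 averaged -0.14 and 0.05, and Tnfrsf4 and Tnfrsf18 on chromosome 4 averaged 0.07 and -0.22. Tnfrsf22 and Tnfrsf23 on chromosome 7 averaged 0.01 and 0.12. Ltbr and Tnfrsf1a on chromosome 6, with only Scnn1a between them, averaged -0.06 and 0.10.

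The 7 members without a complete probe were Tnfsf4 (OX40 ligand), Tnfsf10 (TRAIL), Tnfsf11 (RANK ligand), Tnfrsf8 (CD30), Tnfrsf11b (osteoprotegerin, the soluble decoy receptor for RANK ligand), Tnfrsf13c (BAFF receptor) and Tnfrsf17 (BCMA). When probes with some ratios missing were included, 10.4% of 9795 genes were called, and none of these members was. Their means in that limma fit were 0.11 for Tnfrsf11b (adjusted p = 0.334), 0.11 for Tnfrsf13c (adjusted p = 0.394) and 0.09 for Tnfrsf17 (adjusted p = 0.415). They were 0.01 for Tnfsf10 (adjusted p = 0.944), -0.03 for Tnfrsf8 (adjusted p = 0.839) and -0.04 for Tnfsf4 (adjusted p = 0.674). Only Tnfrsf8 and Tnfsf4 had a value in all 3 sets, the other 4 in 2, and none of the 6 had an unadjusted p under 0.05 (the lowest was 0.116, for Tnfrsf11b). For Tnfrsf8 and Tnfsf4 no single probe had both orientations in every set, so their sets rest on different probes. Tnfsf11 had both orientations in set 1 only (-0.34 on the Cy5-treated and 0.10 on the Cy3-treated array) and was not in that fit.

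All 6 arrays gave each called member the same sign, while 3 uncalled members split by dye orientation on every array. Ltb averaged -0.62 on the Cy5-treated arrays and 0.64 on the Cy3-treated arrays, Tnfsf12 averaged 0.34 and -0.23, and Trafd1 averaged 0.14 and -0.14. In each of the 3, every array of one orientation lay on the other side of 0 from every array of the other. This held for 10.3% of tested members and 13.7% of all genes tested. A dye effect was called by limma for 0 of 29 members, where 0.06% of all genes (5 of 8331) were called. At an unadjusted p under 0.05 the dye effect took in 8 members (27.6%), against 27.8% of all genes. In the fit on 6 arrays the dye effect of Tnfsf12 was called (adjusted p = 0.0491), and in the fit with the replicate block those of Ltb (adjusted p = 0.0444) and Tnfsf12 (adjusted p = 0.0399). The share of all genes with a called dye effect in those fits was not worked out.

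**Figure D3:**
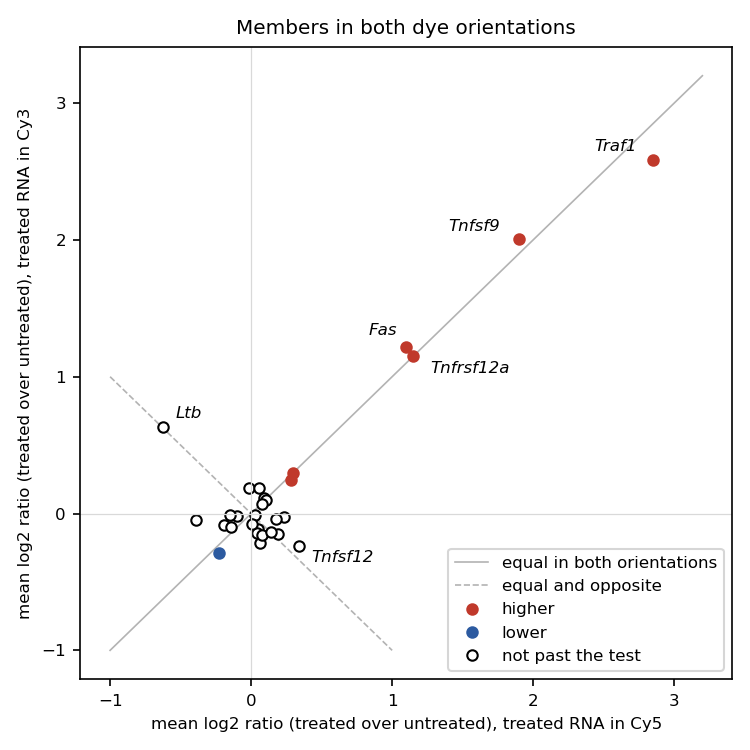
Mean log2 ratio of treated over untreated RNA over the 3 Cy5-treated arrays (horizontal axis) against that over the 3 Cy3-treated arrays (vertical axis) for the 29 tested members; the solid line marks equal and the dashed line equal and opposite values. The 6 members called higher and Tnfrsf25 lie near the solid line, while Ltb (-0.62 and 0.64) and Tnfsf12 (0.34 and -0.23) lie near the dashed one.

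Outside the chosen symbols, the list of other superfamily genes had 2 of 7 tested genes called higher (28.6%) and none lower. Of all genes tested, 6.96% were higher and 6.21% lower. Tnf, the founding ligand, averaged 2.44 ± 0.19 (5.42-fold), and Cd40, the receptor through which T cells activate macrophages, averaged 2.19 ± 0.04 (4.57-fold). The other 5, Cd40lg, Cd27, Eda, Edar and Ngfr, had means between -0.10 and 0.06. Cd40lg had ratios of 0.24, 0.23 and 0.33 on the Cy5-treated arrays and -0.38, -0.42 and -0.28 on the Cy3-treated arrays. As for Ltb, no direction of treatment can be read from its mean.

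Of 21 tested genes of the receptor complexes, ubiquitin enzymes and death signalling, 6 were higher (28.6%) and 2 lower (9.52%). The list median was 0.05, and of all genes tested 6.96% were higher and 6.21% lower. The genes with the largest rises are known brakes on TNF receptor signalling or death: Cflar (FLIP), which blocks caspase-8, at 1.95 ± 0.34, Birc3 (cIAP2), which binds TRAF2, at 1.71 ± 0.07, and Tnfaip3 (A20), a ubiquitin-editing enzyme, at 1.70 ± 0.28. Tnip1, a partner of A20, averaged 0.92 ± 0.09 and Tank, a TRAF-binding protein, 0.48 ± 0.07. Bid, a BCL-2 family protein cleaved by caspase-8, fell by 0.28 ± 0.10, a call that was lost in 5 alternatives. The list's count of calls was 5 without replicate 2.

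Of 25 tested kinases and NF-kappaB genes below the receptors, 10 were higher (40%) and 4 lower (16%), against 6.96% and 6.21% of all genes. The list median was 0.12. Nfkbiz, a nuclear IkappaB protein, averaged 3.72 ± 0.17, with probe means of 2.87 and 4.57. Relb and Nfkb2, the subunits of the non-canonical NF-kappaB dimer, averaged 1.48 ± 0.08 and 0.95 ± 0.09. Map3k14 (NIK), the kinase that drives processing of that dimer below CD40, BAFF receptor and Ltbr, fell by 0.74 ± 0.10. Ikbke averaged 0.71 ± 0.09, with probe means of 1.32 and 0.11 of which only the first passed the test, and Nfkbie averaged 0.66 ± 0.09. Each gene named in these lists with a rise or fall had an adjusted p between 3.5e-06 and 0.0174 in the limma fit.

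**Figure D4:**
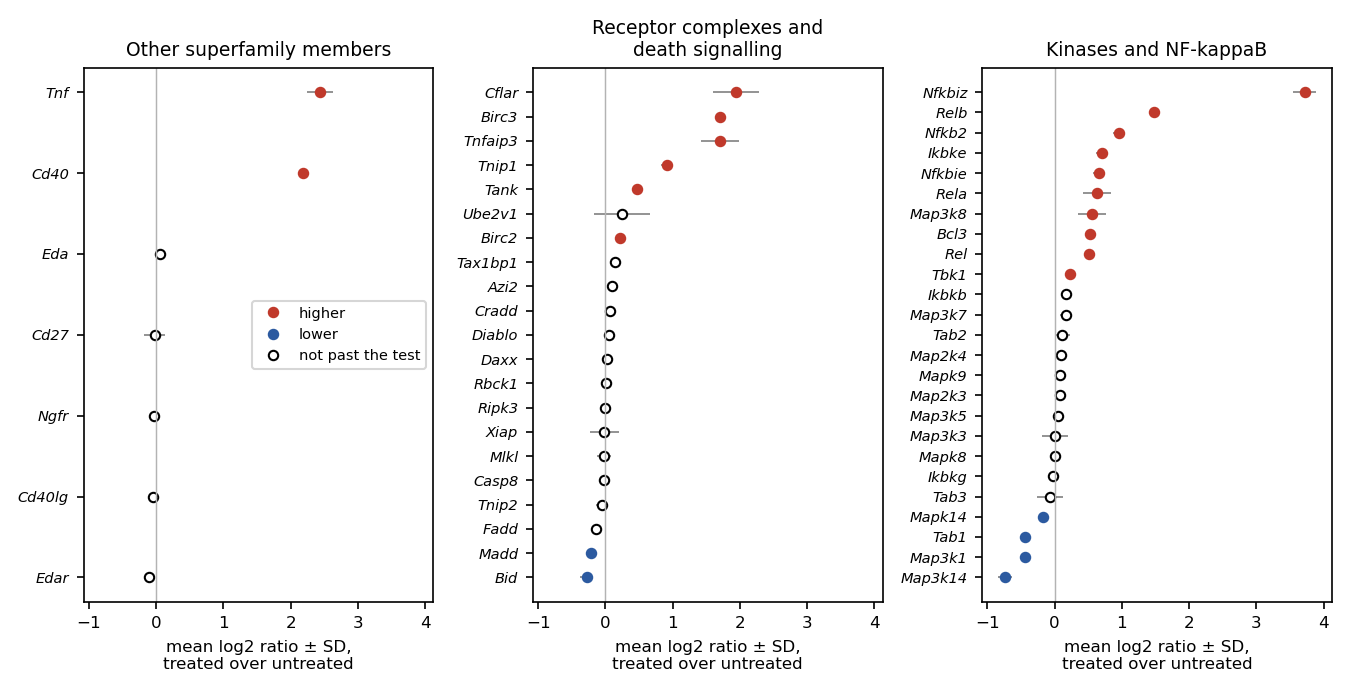
Mean log2 ratio of treated over untreated RNA with its SD over 3 sets (horizontal axes) for the tested genes of 3 lists, superfamily genes with other symbols (left), receptor complexes, ubiquitin enzymes and death signalling (middle) and kinases and NF-kappaB genes (right); filled points were called. Nfkbiz (3.72), Tnf (2.44), Cd40 (2.19) and Cflar (1.95) lie farthest to the right and Map3k14 (-0.74) farthest to the left.

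Marker lists were read beside these groups. Of 15 tested macrophage markers 1 was called higher and 1 lower (6.67% each). Of 10 lymphocyte markers 3 were higher (30%) and 0 lower, and of 4 osteoclast markers 1 was higher (25%). Among all genes tested 6.96% were higher and 6.21% lower. The highest lymphocyte marker, Cd22, averaged 0.77 on its complete probe. With incomplete probes included, Cd22 was at 0.48 (adjusted p = 0.0513) and Cd4 at 0.39 (adjusted p = 0.0638), and neither passed the limma test. Fcgr3, the macrophage marker that was lower, did not pass there either (adjusted p = 0.0543). The other called markers still passed in that limma fit. They were Cd79a of the lymphocyte list (0.20, adjusted p = 0.0419), Ocstamp of the osteoclast list (0.23, adjusted p = 0.0355) and Adgre1 of the macrophage list (0.55, adjusted p = 0.00158). Of 6 fibroblast, epithelial and endothelial markers 0 were called by limma and 0 had an unadjusted p under 0.05. List medians lay between -0.02 and 0.08, and their part in the results on members was not tested. Exact zeros, read as missing ratios, made up between 8.99% and 23.9% of an array, the highest share on the Cy3-treated array of set 2.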

How the data were processed

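The authors deposited 1 log2 ratio per probe for each dual-channel array, per the labels. The scanner, background correction and normalization are not given in the sources used here. An exact 0 was read as a missing ratio. The Cy3-treated arrays were turned by a factor of -1. Among the 200 complete probes farthest from 0, 169 changed sign between the orientations before this step, 137 of them higher in treated RNA after it. Probes were named from the platform annotation: of 16281, 13738 had 1 symbol, 52 several and 2491 none. Of those with 1 symbol, 9968 were measured on every array, and their means by symbol gave 8331 genes. A pair of probes that list several symbols, Lta or Ltb among them, were left out.

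Both arrays of a set were averaged, which cancels a shared dye effect. A moderated test of these 3 set averages against 0 was run in limma 3.58.1 (R 4.3.3, lmFit and eBayes, two-sided, 2 residual and 4.08 prior degrees of freedom). Values are means ± SD of set averages, intervals are moderated 95% intervals. The numbers did not clearly pair the arrays: with orientation means removed, arrays of one number correlated at -0.0077, -0.281 and -0.0943 over genes. The consensus correlation within sets, used for the random replicate block, was 0.0825. The SD of averages can understate the spread of single arrays, and p-values can be too small. The fit was also run on simulated data of independent normal values, which do not test the pairing of arrays or dye effects.

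The members and lists were chosen with earlier results of these data known. Values by array are given for members past the test and for the TRAFs, Fas, Lta, Ltb, Ltbr, Tnfsf9, Tnfrsf1a, Tnfrsf1b and Tnfrsf11a where measured. Up to 6 called genes per pathway list, those of largest ratio, are named. Alternatives were each orientation alone, 6 arrays without averaging, a random replicate block, zeros kept, incomplete probes, quantile normalization, array medians set to 0, single probes and each set left out.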

Additional observations from a re-analysis of the deposited data

Results flagged for a closer look

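The ratios of 3 members had opposite signs in the dye orientations on every array. For Ltb, the mean of the Cy5-treated arrays minus that of the Cy3-treated arrays was -1.26, from means of -0.62 and 0.64. For Tnfsf12 the same difference was 0.58, from means of 0.34 and -0.23. For Trafd1 it was 0.27, from means of 0.14 and -0.14. The limma test of this difference did not pass for Ltb (adjusted p = 0.13), Tnfsf12 (adjusted p = 0.117) or Trafd1 (adjusted p = 0.124) on the 3 sets. The same split was seen in 13.7% of all genes tested. Groups of 3 arrays were not tested for a single outlying array.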

How the results depend on the processing

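Traf1, Tnfsf9, Fas and Tnfrsf12a kept their direction and passed the test in every alternative run. The count of members called higher lay between 5 and 7, against 6, but not always with the same genes. The 7 on the Cy5-treated arrays alone took in Tnfsf12. The 5 on the Cy3-treated arrays alone took in Ltb and lost Lta and Tnfrsf1b. The share of all genes called higher lay between 2.67% and 9.1% in these settings, against 6.96%. Tested singly, 8 of 40 probes of members were called higher, counting both probes of Traf1 and both of Fas. The share of all probes called higher was not worked out. With the replicate block 6 members were called higher and 1 lower, as without it, and the block changed no member's call. It moved the count of called dye effects among members to 2, and the fit on 6 arrays moved it to 1, from 0. The share of all genes with a called dye effect was worked out for the main fit only (0.06%). Whether these counts exceed that of all genes in the same fits is therefore unknown. The count of members called lower was 0 on the Cy5-treated arrays alone, the Cy3-treated arrays alone, with exact zeros kept, and between 0 and 0 with a set left out. The share of all genes called lower fell in these settings too, to 5.99%, 3.19%, 2.21% and between 2.44% and 4.65%, against 6.21%. Of the receptor complex list, 5 genes were called in either orientation alone and between 5 and 7 with a set left out. Of the kinase list, 8 were called with zeros kept. Single probes gave 4 calls for the other superfamily symbols, since Tnf has 3 probes. Uncalled members changed sign in some settings, and for these the cause was not tested. On the Cy5-treated arrays alone, the means were -0.62 for Ltb, 0.0456 for Tnfrsf10b, 0.0618 for Tnfrsf11a, 0.0447 for Tnfrsf13b, 0.0790 for Tnfrsf19, -0.0148 for Tnfrsf21 and 0.0038 for Tnfsf14. On the Cy3-treated arrays alone they were -0.0289 for Tnfrsf1a, -0.0124 for Tnfrsf22, -0.0393 for Tnfrsf4, -0.23 for Tnfsf12, -0.15 for Traf6 and -0.14 for Trafd1. On one orientation alone, Ltb on the Cy3-treated (0.64, adjusted p = 0.0254) and Tnfsf12 on the Cy5-treated arrays (0.34, adjusted p = 0.0283) passed the test. With zeros kept, Tnfrsf13b was at 0.17, Tnfrsf18 at 0.0012 and Tnfrsf19 at 0.0013, and with incomplete probes Tnfrsf13b was at 0.11. Single probes gave 0.0123 for Tnfsf14 and -0.0187 for Traf2. With a set left out, the means ran between -0.0561 and 0.11 for Ltb, -0.12 and 0.0093 for Ltbr, -0.0557 and 0.00084 for Tnfrsf10b, -0.0853 and 0.23 for Tnfrsf1a, and -0.0583 and 0.19 for Tnfrsf21. They ran between -0.0769 and 0.0977 for Tnfrsf22, -0.0093 and 0.17 for Tnfrsf4, -0.0039 and 0.0599 for Traf6, and -0.0385 and 0.0419 for Trafd1. The dye effect was not run on one orientation alone. Signal over background was unknown.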
